A study of Mus musculus with 21 samples.

Results

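The genes described here are 30 mouse genes of cholesterol and fatty acid synthesis and of its control, taken by symbol from a list and found in full among the 25239 genes of each deposited table. By role, 7 belong to the mevalonate arm of sterol synthesis, 11 to the squalene and sterol arm, 5 sense sterols or switch the pathway on, 1 (Stard4) moves sterol inside the cell, and 6 make and modify fatty acids. Messenger RNA was measured by bulk RNA sequencing in 21 libraries from 2 brain tissues, the choroid plexus, which secretes cerebrospinal fluid, and the hypothalamus. All mice were listed as wild type on the C57BL/6J strain. In the Ins2 groups the insulin gene Ins2 was overexpressed in the choroid plexus (6 choroid plexus and 5 hypothalamus libraries), and the control groups were listed as having no treatment (5 libraries per tissue). The controls of hypothalamus carry the replicate numbers 1 to 4 and 6. The sources used here give neither the way Ins2 was introduced nor the age of the mice. Columns of the hypothalamus controls carry a GFP prefix while the sample labels name no treatment, so whether those mice received a GFP construct is unsettled. The labels do not state whether replicates came from separate animals. Each p-value therefore reflects only how far these libraries differ within a group, and that spread may be technical.

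Cells build cholesterol from acetyl-CoA through mevalonate, farnesyl diphosphate, squalene and a series of sterols, and fatty acids from the same acetyl-CoA through malonyl-CoA. The transcription factors SREBP-1 and SREBP-2, made from Srebf1 and Srebf2, are held in the endoplasmic reticulum by Scap and the Insig proteins while sterol is plentiful, and are released to switch on most of these genes when sterol runs low. Insulin is a known inducer of SREBP-1c and of fatty acid synthesis in liver. Most brain cholesterol is made within the brain, since lipoproteins of blood do not pass the blood-brain barrier.

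Values are size-factor-scaled reads, that is, reads per gene divided by a factor that makes the libraries of 1 tissue comparable. Reads recovered from them numbered 25.95 to 36.3 M per library in choroid plexus and 27.4 to 62.1 M in hypothalamus (M, 1000000 reads). The Ins2 transcript, which checks the labels, lay between 387 and 501 scaled reads in the choroid plexus controls and between 598 and 1041 in the 6 Ins2 libraries, with no overlap (log2 fold change 0.92, adjusted p = 0.00594 in limma's test). It was near 0 in hypothalamus, where 1 Ins2 library had 5.75 scaled reads and the rest had 0. All 12 markers of choroid plexus epithelium, Ttr among them, were present in both groups of that tissue. Choroid plexus control 2 held 56284 scaled reads of 12 myelin genes against 2661 to 6112 in the other 10 libraries, and 681 of 12 hypothalamic neuron genes against 31.9 to 90. Of the 681, Avp gave 577 and Oxt 68.8, while Pmch, Trh and Gal were 0 in all choroid plexus controls. In choroid plexus control 5, all 12 macrophage genes were at their lowest among the controls, with a sum of 1322 against 2466 to 6304 in the other libraries of the tissue. All 10 endothelial genes were at their lowest among the controls there too (sum 2914 against 3849 to 4741). So were the sums of the fibroblast (33832 against 37007 to 41816), epithelial, astrocyte, myelin and ependymal lists. Single genes of these lists went the other way. Control 5 was the highest control for Clic6, Otx2, Prlr and Trpv4 of the epithelial list and for Ccdc153 and Cfap126 of the ependymal list. In hypothalamus, control 4 was the lowest library for 20.9% of all genes tested and the highest for 20.4%. Hypothalamus Ins2 replicates 1 and 5 held 39781 and 24008 scaled reads of 9 fibroblast and meningeal genes, against 11613 to 16638 in the other libraries. In replicate 1 a single gene, Ptgds, made up 33360 of that sum. The part of these library differences in the results below was not tested.

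Stretches of promoter are shown for 5 members, to show where the letters of known motifs lie in genes of the mevalonate arm, the sensors and the fatty acid arm. Hmgcs1 makes HMG-CoA, Srebf2 makes SREBP-2, Insig1 makes a retention protein of the SREBPs and is a known target of SREBP-2, and Fasn is fatty acid synthase. The letters searched were TCACCCCA, a core of the sterol regulatory element, CACGTG, an E-box that SREBP also binds, CCAAT, bound by NF-Y, and GGGCGG, bound by Sp1. Both strands were searched from 250 bases before to 50 bases after each RefSeq start on GRCm38.p6. The stretches below end before the first annotated exon, which for Srebf2 and Insig1 is short of the RefSeq start, and read in the direction of the gene, with the matched letters of these 4 motifs in capitals on either strand.
Hmgcs1, chr13:119690101-119690350, plus strand: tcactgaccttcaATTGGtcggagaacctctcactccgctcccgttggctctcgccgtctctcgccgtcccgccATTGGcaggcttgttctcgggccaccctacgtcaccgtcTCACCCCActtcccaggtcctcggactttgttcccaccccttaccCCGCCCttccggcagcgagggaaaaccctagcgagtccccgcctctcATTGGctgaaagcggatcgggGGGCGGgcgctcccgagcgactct
Srebf2, chr15:82147019-82147180, plus strand: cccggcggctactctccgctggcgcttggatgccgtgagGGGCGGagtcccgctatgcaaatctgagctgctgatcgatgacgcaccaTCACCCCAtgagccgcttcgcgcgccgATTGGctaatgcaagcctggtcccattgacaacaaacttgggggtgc
Insig1, chr5:28071162-28071362, plus strand: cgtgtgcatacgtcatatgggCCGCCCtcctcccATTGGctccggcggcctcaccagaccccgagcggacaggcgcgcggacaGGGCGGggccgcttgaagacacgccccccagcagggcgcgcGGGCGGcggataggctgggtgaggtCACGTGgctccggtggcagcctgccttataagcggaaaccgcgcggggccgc
Fasn, chr11:120824548-120824797, minus strand: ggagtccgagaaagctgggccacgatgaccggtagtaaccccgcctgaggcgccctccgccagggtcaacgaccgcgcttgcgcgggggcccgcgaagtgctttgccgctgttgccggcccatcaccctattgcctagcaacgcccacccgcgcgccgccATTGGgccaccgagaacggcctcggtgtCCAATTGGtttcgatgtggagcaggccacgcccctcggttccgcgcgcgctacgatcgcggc
Acly, chr11:100528001-100528250, minus strand: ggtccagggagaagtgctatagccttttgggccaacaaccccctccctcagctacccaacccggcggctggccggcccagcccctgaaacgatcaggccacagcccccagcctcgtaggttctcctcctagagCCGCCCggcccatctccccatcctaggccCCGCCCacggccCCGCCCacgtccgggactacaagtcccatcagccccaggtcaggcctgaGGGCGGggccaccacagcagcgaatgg

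TCACCCCA begins 137 bases before the start of Hmgcs1 and 162 bases before that of Srebf2, and CACGTG begins 101 bases before that of Insig1. In Fasn, CCAAT on the 2 strands begins 62 and 59 bases before the start, and the matches overlap. The printed stretch of Acly, the enzyme that makes cytosolic acetyl-CoA, holds 4 GGGCGG matches, and CCAAT was found in its searched promoters outside that stretch. Of the 30 members, 24 had a promoter in the RefSeq table (not Fdps, Fdft1, Sqle, Stard4, Scd1 and Scd2). TCACCCCA stood in 2 of these 24 (8.33%) and in 1.77% of 27025 genes of the table. CACGTG stood in 5 (20.8%; Hsd17b7, Sc5d, Dhcr7, Scap and Insig1) against 8.09%. CCAAT and GGGCGG stood in 20 members each (83.3%) against 41.1% and 38.2%. The genes compared were not filtered by type or level, whereas the members are all protein-coding and well expressed, so the sets are unlike. A match of letters is a description and not a binding site.

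All 30 members were well expressed in both tissues, with mean values of at least 514 scaled reads in choroid plexus and 532 in hypothalamus, and all 30 entered the tests. Levels between genes were compared per length, as reads per 1000 bases of exon and 1000000 reads in control libraries (RPKM, mean ± SD, n = 5). Length took in every annotated exon of a gene, for example 17074 bases for Acaca, 10787 for Lss and 4403 for Tm7sf2. Where this exceeds the main transcript, the RPKM and the rank of a gene come out too low, and the size of that effect was not tested. In choroid plexus the stearoyl-CoA desaturase Scd2, which makes monounsaturated fatty acids, led with 299 ± 28.2 RPKM, above 99.6% of the genes tested. Scd1, its close relative, followed with 69.1 ± 7.86, then Hmgcs1 with 59.4 ± 13.1, Srebf1 with 54.4 ± 6.35 and Insig1 with 41.8 ± 17.3. These 4 did not differ beyond their spread between neighbours, whereas Scd2 stood clear of them. The lowest were Stard4 (3.56 ± 0.981), Acaca, acetyl-CoA carboxylase (4.07 ± 0.247), and Tm7sf2, a sterol reductase (4.59 ± 0.218). In hypothalamus Scd2 again led with 434 ± 22.2 RPKM, followed by Scd1 (79.3 ± 3.05) and Hmgcs1 (62.2 ± 2.98), and the lowest were Hsd17b7 (3.94 ± 0.494) and Lss, lanosterol synthase (4.08 ± 0.491). The last pair lay within their spread of each other. Levels were not compared between the tissues, because each table was scaled on its own.

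The first pattern concerns how the 30 genes varied from library to library in choroid plexus. Most of them were high in the same libraries and low in the same libraries, and the 5 controls spanned a wider range than the 6 Ins2 libraries did. The mean deviation of the 30 genes from their tissue means was 0.28 in control 1, 0.001 in control 2, 0.14 in control 3, 0.12 in control 4 and -0.35 in control 5 (log2 units). The 6 Ins2 libraries lay at 0.15, -0.003, -0.16, -0.099, -0.044 and -0.042, inside the range of the controls. Over all genes tested the same mean stayed between -0.081 and 0.055, where the scaling tends to hold it near 0.

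**Figure D1:**
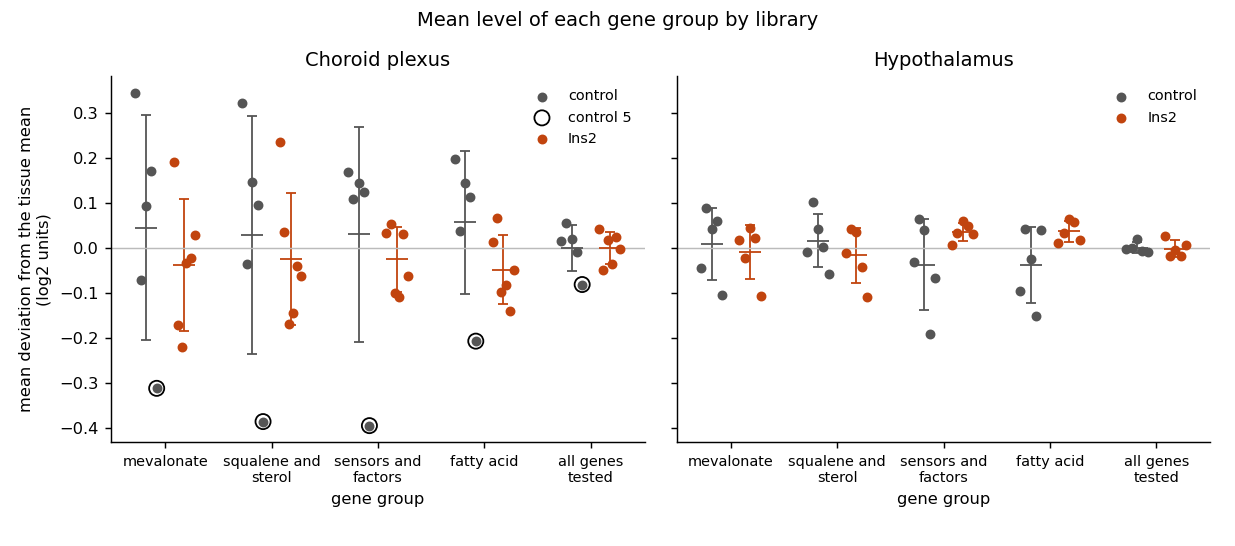
Mean deviation of each role's genes from their tissue mean (vertical axis, log2 units) by library in choroid plexus (left) and hypothalamus (right), with bars for mean ± SD of each group and a ring around choroid plexus control 5. In choroid plexus, control 5 lies lowest in each role (-0.21 in the fatty acid arm, -0.31 in the mevalonate arm, -0.39 in the squalene and sterol arm), and control 1 lies highest.

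Insig1, the retention protein of the SREBPs, showed the widest spread. Its values were 5439.7, 3849, 4238, 4514 and 1221 scaled reads in controls 1 to 5, and 2332 (lowest), 3572 (median) and 3851 (highest) in the 6 Ins2 libraries. Control 5 was thus at 0.271 times the mean of the other 4 controls, below every Ins2 library, and control 1 was the highest of all 11. Cyp51, lanosterol demethylase, had 4749.7, 3572, 3672, 3933 and 1838 scaled reads in the controls and 2901 (lowest), 3248 (median) and 4104 (highest) in Ins2. Hmgcs1 had 10056, 8034, 8819, 8479 and 5266 in the controls and 6266 (lowest), 7686 (median) and 9063 (highest) in Ins2. In both genes control 5 was again the lowest library and control 1 the highest. Fasn, which builds palmitate, had 5771, 4195, 4869, 5274 and 2972 in the controls and 3606 (lowest), 4209.6 (median) and 5024 (highest) in Ins2, in the same order at both ends. Stard4, a sterol carrier, had 758, 609, 685, 584 and 329 in the controls, so that control 5 held 0.499 times the mean of the other 4.

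Control 5 was the lowest of the 11 libraries for 20 of the 30 members (66.7%), against 10.5% of all genes tested. It was below all 4 other controls for 24 members, against 25% of all genes, with a median ratio of 0.762 to their mean (0.996 over all genes). Pmvk, phosphomevalonate kinase, was the member that went the other way, with 740.4 scaled reads against 567 to 677 in the other controls. Insig2, Acly, Acaca, Tm7sf2 and Nsdhl lay within the range of the other controls. Control 1 was the highest of the 11 libraries for 16 members (53.3%), against 7.88% of all genes. Fdft1, squalene synthase, followed the common pattern with 3497, 2715, 3037, 3127 and 1943 scaled reads in the controls and 2439 (lowest), 2795 (median) and 3433 (highest) in Ins2. Msmo1, a sterol demethylase, did too, with 5697, 4087, 4630.1, 4065 and 2438 and 3258 (lowest), 3808 (median) and 5409.6 (highest). Insig2, the second retention protein, had 2450.0, 2667, 2483, 2376 and 2624 and 2194 (lowest), 2325 (median) and 2731 (highest), with no low value in control 5. Ins2 replicate 3 was below the other Ins2 libraries for 13 members, against 15.5% of all genes, with Insig1 at 2332 against 3477 to 3851. Ins2 replicate 1 was above the other Ins2 libraries for 19 members, against 14.6% of all genes.

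**Figure D2:**
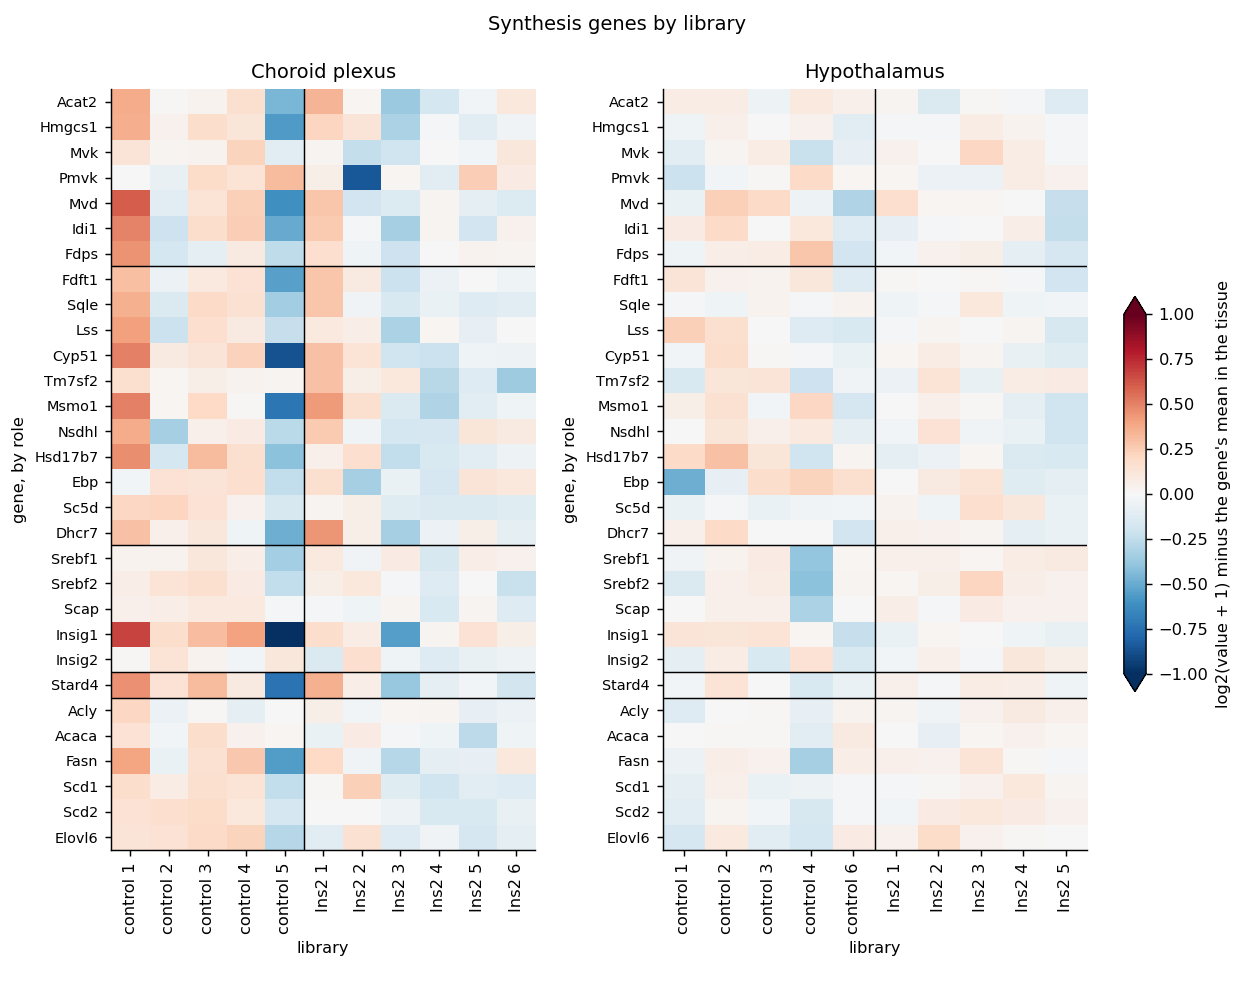
Level of each of the 30 genes (rows, by role) in each library (columns) as log2(value + 1) minus the gene's mean in its tissue, with a colour scale that ends at -1 and 1. In choroid plexus the columns of control 5 (blue) and control 1 (red) run through most sterol genes, while Pmvk and Insig2 do not follow.

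With group means removed, so that a difference between Ins2 and control adds nothing, the 435 pairs of members had a mean Pearson r of 0.483 over the 11 choroid plexus libraries (mean Spearman rho 0.407), against 0.000 over pairs of all genes tested. The mean over all genes was 0.000 in each set of libraries and in both tissues. Scaling the libraries to a common level tends to hold this mean near 0, so it is no baseline for the members. Sets of genes of like level were not compared. The r values describe the libraries, which share their scaling and differ in depth and cell make-up. The mean r was 0.647 within the squalene and sterol arm, 0.539 within the mevalonate arm, 0.490 within the fatty acid arm and 0.341 among the sensors. Without control 5 it was 0.321 over all members (10 libraries), and without controls 1 and 5 it was 0.313. The squalene and sterol arm kept a mean r of 0.537 without control 5 and the mevalonate arm 0.515. The sensors had 0.127 and the fatty acid arm 0.346 without that library.

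Fdft1 had the highest mean r with the other members (0.686), followed by Cyp51 (0.681) and Msmo1 (0.678). Insig1 had 0.630, and its r with Hmgcs1 was 0.939. Srebf2 had 0.498 and Srebf1 0.534, and without control 5 these were 0.164 and 0.129. Insig2 (-0.228) and Pmvk (-0.227) had the lowest values, followed by Acaca (0.220) and Tm7sf2 (0.254). Acly, which makes the acetyl-CoA for both pathways, had 0.255. Fasn had the highest mean r of the fatty acid genes, 0.657, followed by Scd2 with 0.576.

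Outside the list, Ppp1r18 (0.924), Ms4a6c (0.920) and Zfp948 (0.916) were among the 5 genes of 14503 with the highest r with the mean of the 30 genes. Abca1, which exports cholesterol, had an r of -0.654. Without control 5, Mid1 (0.949), Tmem202 (0.928), Eif3k (0.925) and Zfp948 (0.910) were among the 5 highest, and Abca1 had -0.756.

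**Figure D3:**
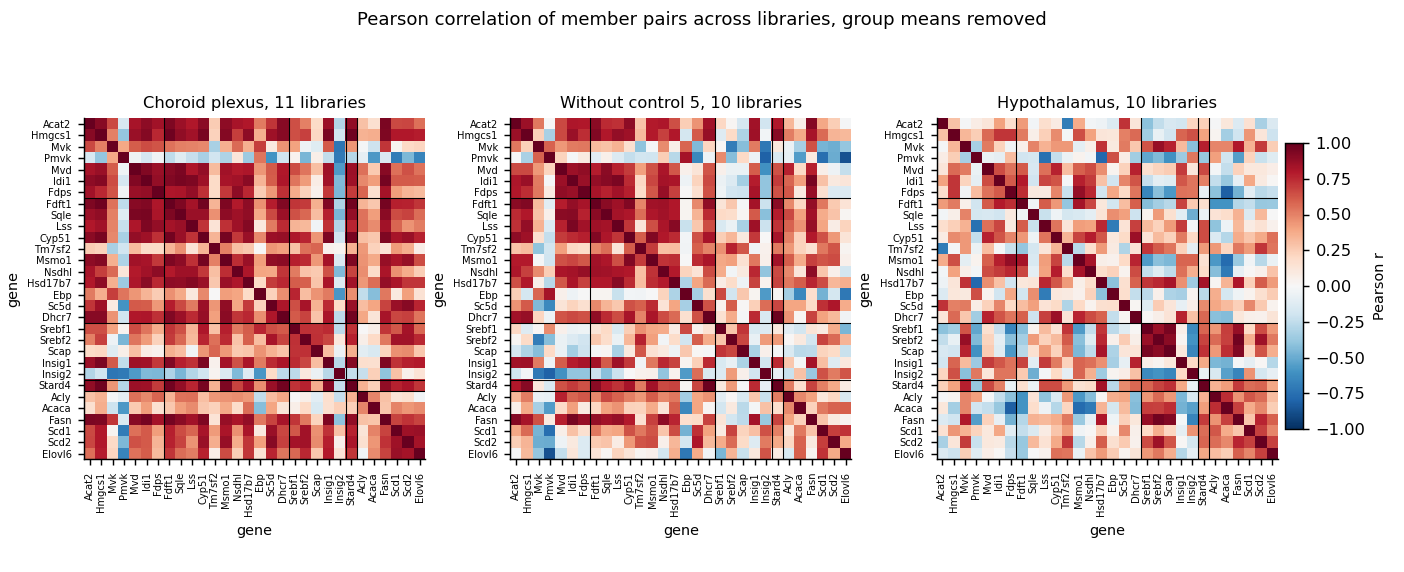
Pearson r between members (rows and columns, by role, colour from -1 to 1) with group means removed, for choroid plexus with all 11 libraries, choroid plexus without control 5, and hypothalamus with 10 libraries. The block of high r across the mevalonate and squalene genes remains visible without control 5, whereas hypothalamus shows a smaller block around Srebf1, Srebf2, Scap and Fasn, in which the r of Srebf1 with Fasn is 0.873 with all libraries and 0.032 without control 4 (not plotted).

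The second question was whether the 30 genes differed between Ins2 and control choroid plexus. None of the 30 passed an adjusted p of 0.05 in limma's test (edgeR and DESeq2 on recovered reads also called 0 of the 30). Over all genes 2 passed (0.0138%). At an unadjusted p under 0.05, 3 members were lower in Ins2 (Sc5d, Scap and Scd2), against 3.67% of all genes, and 0 were higher, against 2.54%. The log2 fold change was below 0 for 26 of 30 members, against 51.6% of all genes. Its median was -0.078, against -0.005 over all genes. The count of 26 rested on single controls: without control 1 it was 14 and the median 0.007, and without control 5 it was 30 and the median -0.16 (51.9% of all genes below 0). Without Ins2 replicate 3 the count was 20 and the median -0.043. Without control 1 or control 3, 0 members had an unadjusted p under 0.05. In those settings 3.92% and 2.71% of all genes had one with a lower level in Ins2. In bulk tissue, fewer cells of a type and less RNA per cell cannot be told apart.

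Without control 5, again 0 members passed with limma or edgeR, and DESeq2 called 1, Scd2 (log2 fold change -0.22, adjusted p = 0.00429). An unadjusted p under 0.05 and a lower level in Ins2 was seen for 13 of the 30, against 4.31% of all genes, and 0 members were higher, against 2.85%. The library left out was the lowest of all for 20 members, so its removal itself moves them toward a lower level in Ins2, and neither the count nor the 30 of 30 below 0 is independent of that choice. This count was 16 without controls 2 and 5, against 3.3% of all genes. It was 7 without controls 1 and 5 and 7 without controls 3 and 5, against 4.33% and 2.97%. The groups did not overlap for 2 members, Scap and Scd2, against 0.92% of all genes with no overlap and a lower level. With control 5 included, 0 members were free of overlap (0.626% of all genes in either direction).

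In the mevalonate arm, all 7 genes had a log2 fold change below 0 with control 5 (-0.20 to -0.005, median -0.075) and without it (-0.26 to -0.069, median -0.16). Hmgcs1 had a mean of 8131 ± 1769 scaled reads in control (SD, n = 5) and 7749.9 ± 978 in Ins2 (n = 6). Its log2 fold change was -0.047 (SE 0.12), with an adjusted p of 0.974 in limma's test, and -0.20 (SE 0.084) without control 5, with an unadjusted p of 0.0308 and an adjusted p of 0.686. Mvd, which makes isopentenyl diphosphate, had 767, 465, 554, 593 and 329 in the controls and 439.8 (lowest), 465 (median) and 610.0 (highest) in Ins2. The groups overlapped, and its fold change went from -0.10 to -0.26 without control 5. Pmvk had the largest difference with all libraries, -0.20 (SE 0.14), with 595, 567, 677, 655 and 740.4 scaled reads in the controls. Ins2 replicate 2 held 329.9 against 552 to 705 in the other Ins2 libraries, so that 5 of the 6 lay within the range of the controls or close below it. Mvk, mevalonate kinase, had -0.12 and -0.16. Acat2, Idi1 and Fdps lay between -0.075 and -0.005.

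In the squalene and sterol arm, 8 of 11 genes were below 0 with all libraries (-0.17 to 0.034, median -0.061) and 11 of 11 without control 5 (median -0.15). Sc5d, sterol desaturase, had 1841, 1848, 1768, 1645 and 1431 scaled reads in the controls and 1441 (lowest), 1465 (median) and 1661 (highest) in the 6 Ins2 libraries. Controls 1 to 4 were at or above 1645 and only the highest Ins2 library reached that level, while control 5 lay below all 6. The log2 fold change was -0.17 (SE 0.071) with an unadjusted p of 0.0306, an exact permutation p of 0.0736 and an adjusted p of 0.766 (limma). Without control 5 it was -0.23 (SE 0.065) (adjusted p = 0.43 with limma). Cyp51 went from -0.029 (SE 0.16) to -0.25 (SE 0.093), with overlap in both. Hsd17b7, a sterol ketoreductase, had 1117, 715, 1009, 906 and 608 in the controls and 682 (lowest), 763 (median) and 908 (highest) in Ins2, and went from -0.13 (SE 0.13) to -0.25 (SE 0.11). Sqle, squalene epoxidase and a rate-setting step, had 4770.3, 3370.1, 4264, 4147 and 2933 in the controls and 3352 (lowest), 3507 (median) and 4508 (highest) in Ins2. Its fold change was -0.079 with control 5 and -0.18 without it. Fdft1, Nsdhl and Dhcr7 were the 3 at or above 0 with all libraries (0.021, 0.034 and 0.026), and Msmo1 stood at -0.007. Lss, Tm7sf2 and Ebp had -0.080, -0.11 and -0.061.

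Among the sensors, Scap, the escort protein of the SREBPs, had 4508, 4542, 4655, 4649 and 4276 scaled reads in the controls and 3907 (lowest), 4242 (median) and 4431 (highest) in Ins2. It varied little, and only control 5 lay inside the range of Ins2. Its log2 fold change was -0.11 (SE 0.050) with an unadjusted p of 0.0434, an exact permutation p of 0.0325 and an adjusted p of 0.793 (limma), and -0.13 (SE 0.053) without control 5. Insig1 had a log2 fold change of -0.028 (SE 0.26) with all libraries, from 3852 ± 1584 in control to 3429 ± 555 in Ins2. Without control 5 it was -0.40 (SE 0.11), the largest of the 30, or 0.756 times the control mean on this scale, with an unadjusted p of 0.00232 and an adjusted p of 0.422 (limma). The 4 remaining controls then ran from 3849 to 5440 and the Ins2 libraries from 2332 to 3851, so that only the lowest control and the highest Ins2 library overlapped. Srebf2 had 8483, 8893, 9036, 8556 and 6824 in the controls and 6918 (lowest), 8032 (median) and 8689 (highest) in Ins2, with -0.076 (SE 0.072) and, without control 5, -0.15 (SE 0.061). Srebf1 had 9457, 9432, 9955, 9627 and 7269 and 8255 (lowest), 9576 (median) and 9872 (highest), with 0.035 and -0.046, and Insig2 had -0.10 and -0.084. Stard4, the sterol carrier, had 424 (lowest), 527 (median) and 703 (highest) in Ins2, a fold change of -0.10 (SE 0.17) and, without control 5, -0.30 (SE 0.12).

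In the fatty acid arm, all 6 genes were below 0 in both fits (medians -0.12 and -0.20). Scd2 had 50578, 51337, 52094, 49245 and 40695 scaled reads in controls 1 to 5 and 41238 (lowest), 43825 (median) and 45933 (highest) in Ins2. Controls 1 to 4 all lay above the highest Ins2 library, and control 5 lay below the lowest. The log2 fold change was -0.16 (SE 0.064) with all libraries, with an unadjusted p of 0.0227, an exact permutation p of 0.052 and an adjusted p of 0.729 (limma). Without control 5 it was -0.22 (SE 0.055), a level 0.858 times that of control, with an exact permutation p of 0.00476, the smallest that 210 splits can give, and an adjusted p of 0.34 (limma). Elovl6, which lengthens palmitate, had 3070.0, 3111, 3204, 3281 and 2307 in the controls and 2508 (lowest), 2615 (median) and 3121 (highest) in Ins2. Ins2 replicate 2 was the only Ins2 library within the range of controls 1 to 4, and the fold change was -0.14 (SE 0.081) and -0.24 (SE 0.062). Scd1 had 10848, 10147, 10725, 10572 and 8114 in the controls and 8395 (lowest), 8888 (median) and 11365 (highest) in Ins2, where the highest library exceeded every control, with fold changes of -0.11 and -0.19. Fasn had -0.069 (SE 0.12) and -0.22 (SE 0.088). Acaca had 2180.2, 1931, 2225, 2028 and 2000.0 in the controls and 1644 (lowest), 1915 (median) and 2084 (highest) in Ins2, with -0.13 (SE 0.063) and -0.14 (SE 0.068). Acly had -0.024 and -0.028, and for these genes leaving out control 5 made little difference.

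**Figure D4:**
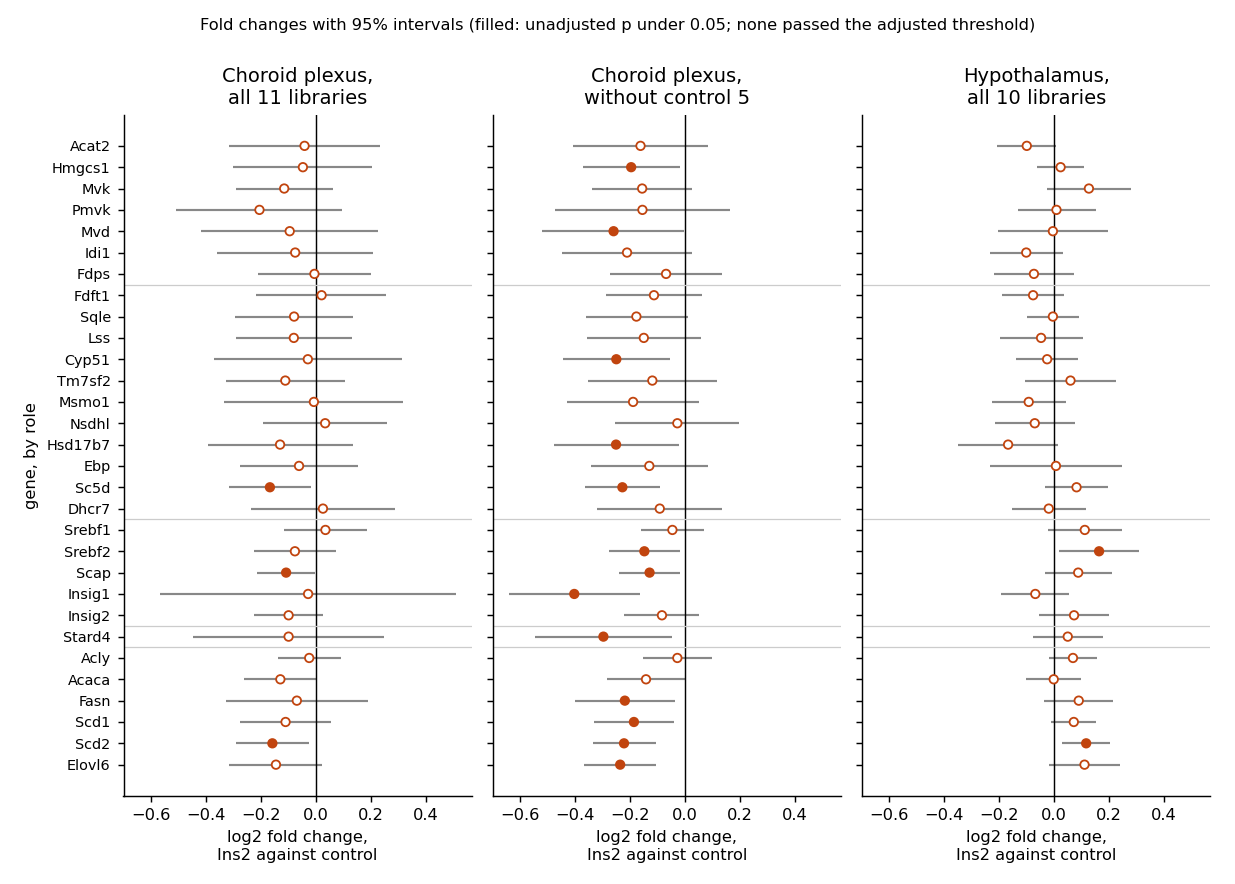
Log2 fold change of Ins2 against control (horizontal axis) for each gene (rows, by role) with its 95% interval, in choroid plexus with 11 libraries, choroid plexus without control 5, and hypothalamus with 10 libraries. Filled points have an unadjusted p under 0.05 (3, 13 and 2 genes), and none passed the adjusted threshold in limma's test.

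In hypothalamus, 0 of the 30 members passed an adjusted p of 0.05 with limma, edgeR or DESeq2. Over all genes 0 passed with limma (0%) and edgeR and 21 with DESeq2, while 1624 had an unadjusted p under 0.05 (9.92%). At an unadjusted p under 0.05, 2 members were higher in Ins2 (Srebf2 and Scd2), against 5.85% of all genes, and 0 were lower, against 4.08%. The groups overlapped for all 30, as they did for all but 1.5% of the genes tested. The log2 fold change was below 0 for 14 of 30 members, against 49.7% of all genes, with a median of 0.007 against 0.001.

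In the squalene and sterol arm of hypothalamus 8 of 11 were below 0 (median -0.026, lowest Hsd17b7 with -0.17 (SE 0.088)), and in the mevalonate arm 4 of 7 (median -0.005). In the fatty acid arm 5 of 6 were above 0 (median 0.080), as were 4 of the 5 sensors (median 0.087). Without control 4 the same counts held, with medians of 0.061 and 0.029. Scd2 had 80250.4, 88519, 85388, 77824 and 86194 scaled reads in the controls and 85195, 92236, 93678, 91919 and 89812 in Ins2. The 4 highest of the 10 libraries were Ins2 replicates 2 to 5, and replicate 1 lay within the controls. Its log2 fold change was 0.12 (SE 0.042) with an unadjusted p of 0.0121, an exact permutation p of 0.0318 and an adjusted p of 0.386 (limma). Srebf2 had 8998, 10296, 10481, 7472 and 10135 in the controls and 10110.5, 10369, 11541, 10431 and 10243 in Ins2, with 0.16 (SE 0.070), an unadjusted p of 0.0314 and an adjusted p of 0.458 (limma). Control 4 was the lowest library for both genes, and without it the fold change was 0.080 for Srebf2 and 0.090 for Scd2. Some members moved away from 0 without control 4. Hsd17b7 then had -0.239, with an unadjusted p of 0.00623 and an adjusted p of 0.4354 (limma). Insig2 went from 0.072 to 0.116, with an adjusted p of 0.5741 (limma).

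The same control 4 was low in Srebf1, with 5765, 6055, 6268, 4529 and 5994 in controls 1 to 4 and 6 and 6107, 6130.3, 5986, 6211 and 6273 in Ins2, where the other 9 libraries lay close together. Scap had 4857, 5054, 5054, 3909 and 4886 in the controls, again with control 4 far below the rest. Fasn had 13061, 14249, 14017, 10801 and 14233 in the controls and 14079.8, 14035, 14958, 13758 and 13415 in Ins2. The fold changes were 0.11 (SE 0.065) for Srebf1, 0.087 (SE 0.059) for Scap and 0.089 (SE 0.061) for Fasn, and none passed. Without control 4 they were 0.029, 0.019 and 0.016. Insig1 did not follow control 4 (4759, 4723, 4795, 4409 and 3709.9 in the controls and 4146, 4419, 4334, 4216 and 4145 in Ins2), with control 6 lowest and a fold change of -0.069 (SE 0.060). Hmgcs1 had 9845, 10526, 10099, 10419.5 and 9428 in the controls and 10017, 9996, 10646, 10379 and 10077 in Ins2 (0.023 (SE 0.041)), and Sqle had 3314, 3245, 3430.3, 3320.1 and 3425 and 3248, 3318, 3592, 3238 and 3284 (-0.005 (SE 0.046)). The groups overlapped for both genes. 

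Mvk had 840.3, 923, 951, 774 and 854 scaled reads in the controls and 929.9, 906, 1046, 954 and 896 in Ins2, where all 5 exceeded 3 of the controls. Cyp51 had 3132, 3620.1, 3226, 3148 and 3047 and 3241, 3366, 3269, 3045 and 2948, with control 2 highest. Stard4 had 1376, 1539.7, 1396, 1262 and 1336 and 1451, 1382, 1475, 1466 and 1363, again with control 2 highest. Scd1 had 13148, 14524, 13367, 13476 and 13798 and 13825, 14126, 14456, 15049 and 14282, and all Ins2 libraries but replicate 4 lay below the highest control. Insig2 had 1934, 2174, 1865, 2279.8 and 1864 and 2032, 2139, 2053, 2231 and 2150.2, inside the range of the controls. Pmvk had 1183, 1349, 1384, 1567 and 1389 and 1394, 1321, 1318, 1444 and 1413, and Ebp, a sterol isomerase, 377, 497, 594, 614 and 590.2 and 528, 562, 581, 484 and 495, with the Ins2 values inside the controls' range for both. Mvk (0.13), Elovl6 (0.11), Sc5d (0.081), Scd1 (0.071), Insig2 (0.072) and Acly (0.068) were above 0, and Acat2 (-0.10), Idi1 (-0.10), Msmo1 (-0.093) and Fdft1 (-0.077) below, and none of these passed. Tm7sf2, Stard4, Pmvk, Ebp, Acaca, Mvd, Dhcr7, Cyp51, Lss, Nsdhl and Fdps lay between -0.074 and 0.059.

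**Figure D5:**
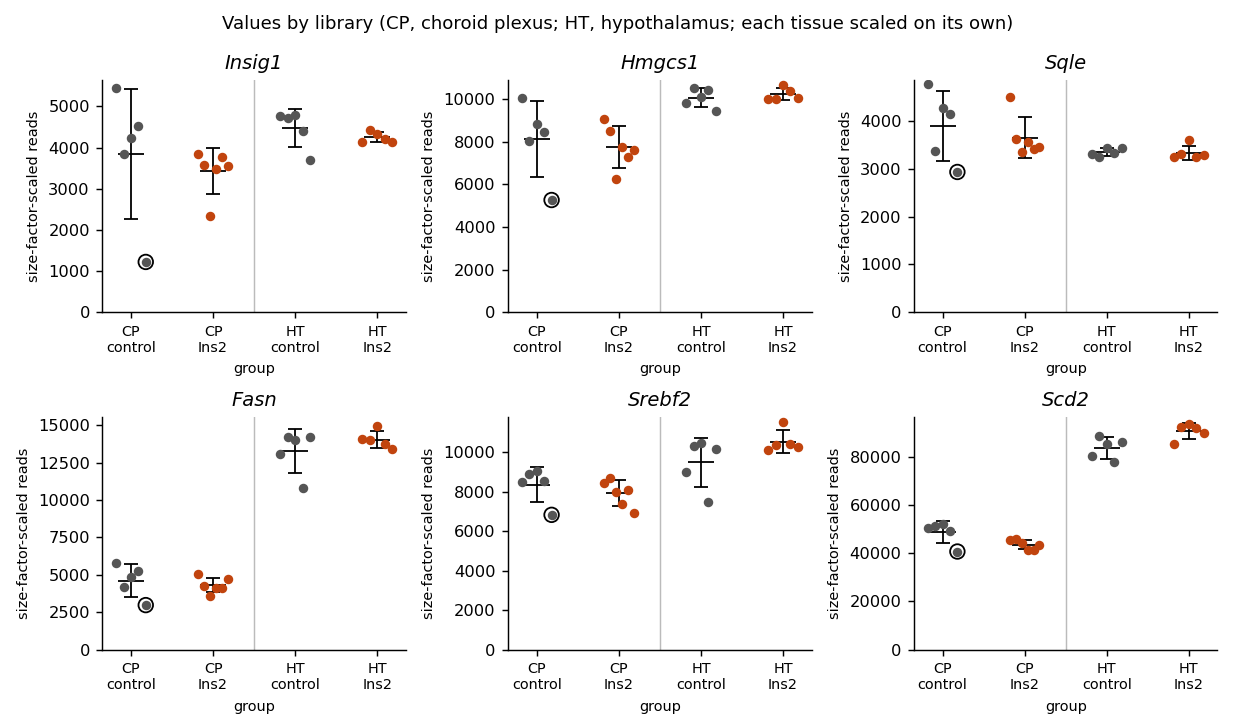
Scaled reads (vertical axes, from 0) of Insig1, Hmgcs1, Sqle, Fasn, Srebf2 and Scd2 in each library by group, with mean ± SD and a ring around choroid plexus control 5. The controls of choroid plexus spread widest for Insig1 (1221 to 5440), and for Scd2 the Ins2 libraries of choroid plexus (41238 to 45933) lie below controls 1 to 4 but above control 5, whereas the groups overlap in hypothalamus.

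The members varied less in step in hypothalamus. Their mean r with group means removed was 0.184 over 10 libraries (Spearman 0.174), 0.101 without control 2 and 0.244 without control 4. The mean of 0.000 over all pairs of genes is again no baseline, because scaling tends to hold it there. The fatty acid arm had 0.530, the mevalonate arm 0.284, the squalene and sterol arm 0.227 and the sensors 0.123. Stard4 (0.387), Cyp51 (0.357) and Mvk (0.347) had the highest mean r with the other members, and Pmvk (-0.135), Ebp (0.000) and Insig2 (0.002) the lowest. The r of Srebf2 was 0.967 with Fasn and 0.906 with Scap, and 0.030 with Insig1. Without control 4 these were 0.880, 0.614 and -0.035, and the r of Srebf1 went from 0.867 to 0.341 with Srebf2 and from 0.946 to 0.259 with Scap. In choroid plexus the r of Insig1 with Srebf2 was 0.670 with all libraries and -0.078 without control 5. Outside the list, the genes with the highest r with the members' mean in hypothalamus were Stk40 (0.926), Man2b2 (0.924), Kmt5c (0.916) and Hk3 (0.905). Abca1, negative in choroid plexus, had 0.027 in hypothalamus, -0.033 without control 4 and -0.491 without control 2. The median SD within groups was 0.109 for members in hypothalamus, against 0.096 for the genes whose mean was at least that of the lowest member. In choroid plexus it was 0.218 against 0.115.

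A further test, gene by gene, asked whether the effect of Ins2 differed between tissues, by subtracting the hypothalamus log2 fold change from that in choroid plexus. No member of the 30 passed an adjusted p of 0.05 with all libraries (15 genes in all, 0.107%), and 6 had an unadjusted p under 0.05 (Mvk, Sc5d, Srebf2, Scap, Scd2 and Elovl6; 10.6% of all genes). All 6 had a fold change below 0 in choroid plexus and above 0 in hypothalamus. They were picked for a difference between these fold changes, and that choice itself favours opposite signs. Scd2 had a difference of -0.27 (SE 0.076) with an adjusted p of 0.153 (limma fits), Sc5d -0.25 (SE 0.090), Elovl6 -0.26 (SE 0.10), Srebf2 -0.24 (SE 0.10), Mvk -0.24 (SE 0.11) and Scap -0.20 (SE 0.077). Without choroid plexus control 5, Scd2 passed with -0.34 (SE 0.069) (adjusted p = 0.0336, limma fits), 1 of 20 genes that did (0.143%). Control 5 was the lowest library for Scd2, so leaving it out favours a lower level in Ins2 and this pass depends on that choice. In the same setting 12 members had an unadjusted p under 0.05 (11.2% of all genes). Elovl6 then had -0.35 (SE 0.088) with an adjusted p of 0.0927 (limma fits). The test treats the tissues as independent, which need not hold if they came from the same animals.

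Genes of neighbouring lipid pathways, from 7 lists, gave 0 calls in either tissue with limma. Of 9 other sterol synthesis genes, 5 were below 0 in choroid plexus with all libraries (median -0.002), 5 without control 5 (median -0.020) and 5 in hypothalamus (median -0.011). Of 15 genes of sterol uptake and transport, 6 were below 0 in choroid plexus (median 0.009), 7 without control 5 (median 0.014) and 6 in hypothalamus (median 0.015). Of 13 tested genes of sterol efflux and esters, 9 were below 0 in choroid plexus (median -0.068), with Abca1 at -0.077, and of 14 in hypothalamus 7 (median 0.002). Of 28 further genes of fatty acid synthesis and desaturation, 19 were below 0 in choroid plexus (median -0.031), 20 without control 5 (median -0.043) and, of 27, 14 in hypothalamus (median -0.013). The 11 genes of SREBP processing, 13 of glycerolipid synthesis and 18 of fatty acid oxidation had medians of -0.055, -0.009 and -0.011 in choroid plexus and 0.018, 0.005 and 0.023 in hypothalamus.

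The strand setting of the authors' counting is not given in the sources used here, so reads of a gene that overlaps another on the opposite strand cannot be told from reads of that other gene. Shared exon bases were 18.3% for Fdft1 (with Ctsb), 13.2% for Scap, 12.1% for Hmgcs1 and 9.22% for Idi1, and at most 3.76% for the other members. These genes are therefore uncertain to that extent. Scd1 and Scd2 are related genes in the same region of chromosome 19 of GRCm38 (44394455 to 44407879, minus strand, and 44293674 to 44306864, plus strand). How reads that match both were counted is not known here. Insig1 lies on chromosome 5 (28071363 to 28078662, plus strand) and shares no exon bases with a gene on the opposite strand.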

How the data were processed

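Bulk messenger RNA was measured in 21 libraries of choroid plexus (6 Ins2, 5 control) and hypothalamus (5 and 5). Reads were aligned, counted and scaled by the authors with HISAT2, featureCounts and DESeq2 on GRCm38/mm10, per the submitters' processing notes (versions and strand setting: not given in the sources used here). Each deposited table covers 1 tissue, and its signal values are reads per gene over the library's size factor. All values were whole multiples of the library's step (tolerance 0.02), which gave back the reads. No libraries were duplicates (lowest chi-square per gene within a group 7.047 and 5.551).

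The main test was limma 3.58.1 with an intensity trend on log2(value + 1) over genes with a mean of at least 10 (14533, 14564 without control 5, and 16363 in hypothalamus), with Benjamini-Hochberg adjustment at 0.05. Fold changes are on that scale. Exact permutation tests, 2-sided, gave a p per gene. The tissue difference used the fits' standard errors with Welch-Satterthwaite degrees of freedom. Alternatives were edgeR 4.0.16 and DESeq2 1.42.0 on recovered reads, pseudocounts of 0.5 and 5, no filter, a mean of at least 50, equal totals, array weights, a replicate block and leaving out libraries. The fits were tested on simulated data. Values by library are given for members with an unadjusted p under 0.05, for sensors and rate-setting steps, and for the 3 members with the highest and the 3 with the lowest mean correlation in each tissue. Members and lists were chosen with earlier results of these data known. Some genes outside the 30 are not reported here.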

Additional observations from a re-analysis of the deposited data

Results flagged for a closer look

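In 16 of 88 groups of libraries (22 named members, 4 groups each), the highest or lowest library stood further from the rest than Dixon's 95% limit allows. Chance alone gives about 1 in 20 groups, but members that vary together do not count as separate cases. The 22 members were also named partly by their values in these same libraries, so the count cannot be set against chance. Choroid plexus control 5 accounted for 6 of them, all low. It held 7269.3 scaled reads of Srebf1 (other controls 9432 to 9955), 6823.6 of Srebf2 (8483 to 9036), 1220.7 of Insig1 (3849 to 5440), 8114.5 of Scd1 (10147 to 10848), 40695.3 of Scd2 (49245 to 52094) and 2306.5 of Elovl6 (3070.0 to 3281). The same library had the lowest control sums of macrophage (1322 against 2466 to 4762), endothelial (2914 against 3849 to 4741) and fibroblast genes (33832 against 37007 to 41816), and the part of these in its values was not tested.

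Among the Ins2 libraries of choroid plexus, replicate 2 held 329.9 scaled reads of Pmvk (others 552 to 705) and 2731.5 of Insig2 (2194 to 2350). Replicate 1 held 4507.9 of Sqle (3352 to 3632), and replicate 3 held 2332.2 of Insig1 (3477 to 3851).

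In hypothalamus, control 4 held 4529.1 scaled reads of Srebf1 (5765 to 6268 in the other controls) and 3908.7 of Scap (4857 to 5054). Among the Ins2 libraries, replicate 3 held 3592.5 of Sqle (3238 to 3318) and 11541.1 of Srebf2 (10110.5 to 10431), replicate 2 held 2827.0 of Elovl6 (2480 to 2563), and replicate 5 held 3900.6 of Fdft1 (4402 to 4511).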

How the results depend on the processing

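The count of members past the threshold was 0 in choroid plexus with all libraries and in hypothalamus under each of the 21 and 19 alternatives run. Without control 5 it was 1 with DESeq2 (Scd2, -0.220, adjusted p 0.004289) and 0 otherwise. For the difference between the tissues it was 0, but 1 (Scd2) with array weights and with DESeq2, and 0 to 1 when single libraries were left out. edgeR was not run for that difference, because it gives no standard error. Counts over all genes moved. In choroid plexus they were 25 with DESeq2, 6 with array weights, 1 with a mean of at least 50 and 1 to 4 without single libraries. Without control 5 they were 33 with DESeq2, 8 with array weights and 8 with the replicate block. In hypothalamus they were 21 with DESeq2, 54 with the replicate block and 0 to 18 without single libraries. Same-number correlations were -0.148 to 0.140 in choroid plexus (5 pairs) and -0.070 to 0.009 in hypothalamus (4 pairs). So few pairs cannot settle whether replicate numbers pair the samples. In hypothalamus some replicate numbers also differ from the codes in the sample titles. The replicate block also moved Sqle to 0.008 in hypothalamus. The direction of several fold changes depended on single libraries. Leaving out 1 library at a time gave, in choroid plexus, -0.196 to 0.038 for Hmgcs1, -0.260 to 0.044 for Mvd, -0.250 to 0.093 for Cyp51, -0.403 to 0.136 for Insig1, -0.297 to 0.003 for Stard4, -0.219 to 0.021 for Fasn and -0.046 to 0.070 for Srebf1, and in hypothalamus -0.032 to 0.005 for Sqle. Srebf1 was -0.055 without controls 2 and 5. The cause was not tested. The mean r of the members was 0.321 to 0.511 in choroid plexus and 0.101 to 0.244 in hypothalamus without single libraries, and 0.313 without choroid plexus controls 1 and 5. Leaving out controls 1 and 5 together, and running each alternative on the fit without control 5, were chosen after seeing the data. The members had at least 305 reads in every choroid plexus library and 421 in every hypothalamus library.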
